A study of Mus musculus with 42 samples.

Results

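Fatty acid beta-oxidation was examined here as a group of 36 genes, listed by their known place in the pathway: 20 genes of the mitochondrial route, 12 of the peroxisomal route, and 4 (Acad11, Eci2, Crat and Amacr) whose products work in both compartments or whose place is less certain. All probe sets annotated to 1 of these genes alone were used, which gave 61 probe sets for 35 genes, out of 45037 probe sets and 18193 genes measured. The genes divided into 19 mitochondrial genes with 34 probe sets, 12 peroxisomal genes with 20 probe sets and the 4 other genes with 7. The missing gene was Cpt1b, whose only probe set also names Chkb and Gm44502.

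The data came from male ddY mice, an outbred strain, described as 5 weeks old and then acclimated for a week before the first dose. VAAM mice received by feeding tube a 1.8% solution of VAAM, an amino acid mixture that imitates the saliva of Vespa (hornet) larvae, and water mice received water, in each case 37.5 µL per g of body weight on 5 occasions at daily intervals. No mutation or other agent was involved, all mice had lost access to food on the last morning, and tissues were taken 4 h after the last dose. The liver, the white fat (WAT) and the brown fat (BAT) of 7 VAAM mice and 7 water mice were measured on 42 Affymetrix arrays, 14 per tissue. VAAM was compared with water to learn how the mixture acts on gene expression in mice that fed and moved freely.

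Beta-oxidation shortens fatty acids by repeated rounds of dehydrogenation, hydration, a further dehydrogenation and thiolytic cleavage, each round releasing acetyl-CoA. In mitochondria the carnitine shuttle brings long-chain acyl groups in and the electrons pass to the respiratory chain, for ATP in liver and for heat in brown fat. In peroxisomes oxidases take the place of the dehydrogenases for the opening step, and the route handles very long chains, branched chains and bile acid side chains, largely in the liver. Nuclear receptors of the PPAR family are textbook regulators of both routes.

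The tissues showed their own defining genes. In water mice the mean log2 level of 4 hepatocyte genes was 14.572 in liver, against 6.654 in BAT and 6.925 in WAT. The mean of 5 brown adipocyte genes had a median over mice of 11.783 in BAT, 6.743 in WAT and 7.17 in liver. Of these, Ucp1, the uncoupling protein of brown fat, stood at 14.22 in BAT against 6.36 in WAT. Elovl3 was higher in liver (9.53) than in BAT (8.52). The mean of 4 white adipocyte genes had a median of 12.095 in WAT, 9.255 in BAT and 6.396 in liver. Genes of other tissues were present in part of the fat samples. The mean of 8 skeletal muscle genes in BAT had its lowest, median and highest value at 6.774, 8.54 and 11.185 in VAAM mice and at 6.886, 7.389 and 11.459 in water mice, and the mean of 7 epididymis genes in WAT stood at 7.8, 8.583 and 13.497 in VAAM mice and at 7.141, 7.339 and 12.154 in water mice. On the first 3 principal components 4 arrays stood apart from their tissue (liver of VAAM mouse 6, WAT of VAAM mouse 1, BAT of VAAM mice 3 and 5). In tissue RNA of this kind, fewer cells of a type and less RNA per cell cannot be told apart.

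Every deposited value is a log2 level per probe set from a summary that compresses the deviations between arrays. For the probe sets that represent the 35 genes, the SD over the 7 water arrays of a tissue lay between 1.27e-07 (Scp2 in liver) and 0.0093 (Acad11 in WAT), far below the differences between tissues. With so little spread limma, a linear model with a moderated variance, called 99.8% of all probe sets between BAT and WAT (49 of 61 higher and 12 lower in the group, 36.9% and 62.8% of all). It called 99.8% between liver and WAT (49 higher and 12 lower, against 37.2% and 62.6%) and 99.7% between liver and BAT (23 higher and 38 lower, against 44.3% and 55.4%), so a call says little about a gene. Tissue contrasts are therefore described by the size of the difference of mean levels in water mice, beside the same for all genes. The 3 tissues appear to have been summarized separately, and a difference of these levels is not a fold change.

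Mitochondrial and peroxisomal genes took opposite sides of the contrast between liver and BAT. Of the 19 mitochondrial genes, 17 (89.5%) had their highest level in BAT and 18 their lowest in WAT, and the median difference between liver and BAT was -1.02. Of the 12 peroxisomal genes, 10 (83.3%) had their highest level in liver, with a median difference between liver and BAT of 1.79. Among all 18193 genes 28% were highest in liver, 24.3% in BAT and 47.6% in WAT, and the median difference between liver and BAT was -0.05. None of the 35 genes was highest in WAT.

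**Figure D1:**
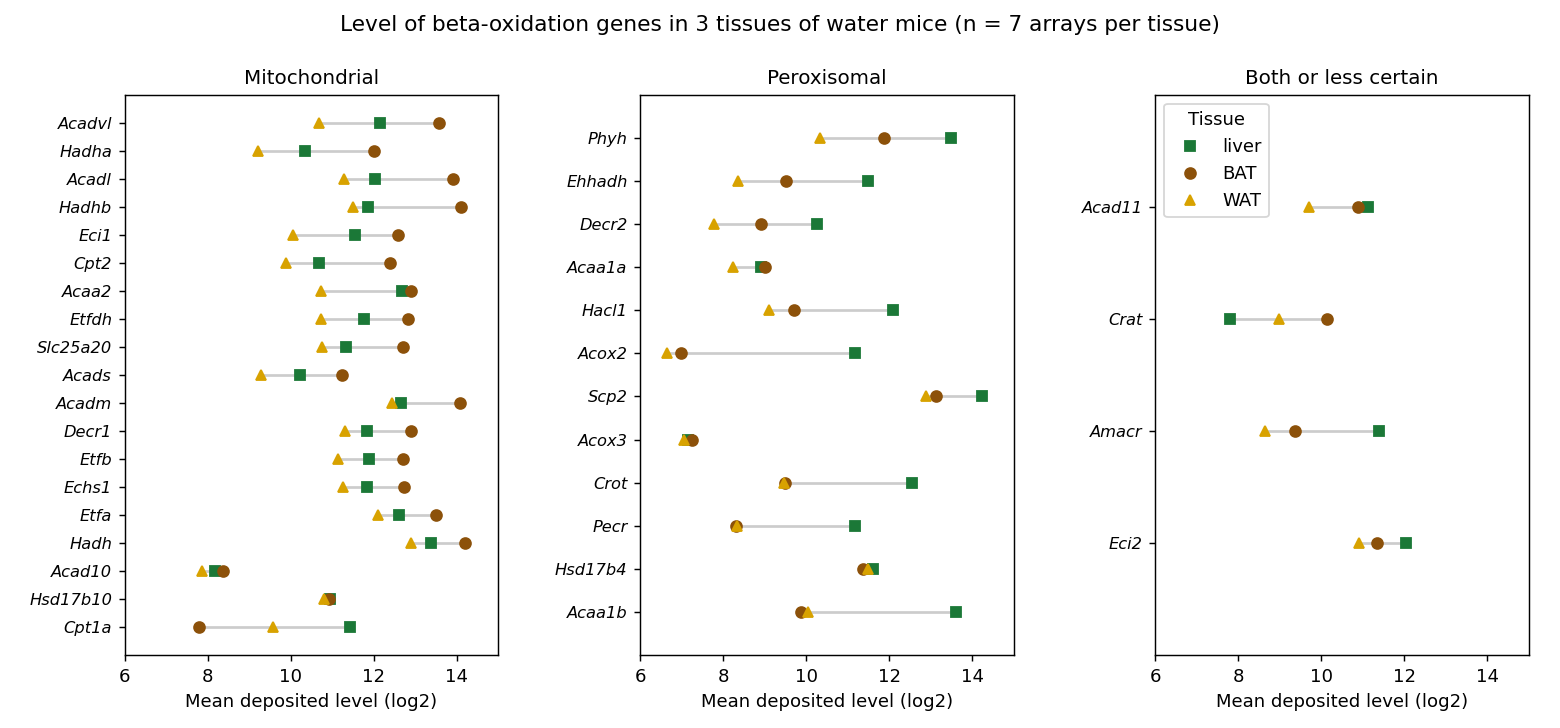
Mean deposited log2 level (x axis) of each of the 35 genes in liver (squares), BAT (circles) and WAT (triangles) of water mice, 7 arrays per tissue, in 3 panels for mitochondrial, peroxisomal and other genes. The SD over arrays, at most 0.0093, is smaller than the symbols. BAT is the rightmost symbol for 17 of 19 mitochondrial genes and liver for 10 of 12 peroxisomal genes.

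Against WAT, BAT carried more of nearly the whole mitochondrial route. By at least 1 on the log2 scale, 16 of 19 mitochondrial genes were higher in BAT and 1 was lower, against 2.54% higher and 6.78% lower among all genes. The peroxisomal genes had 3 of 12 higher and 0 lower. The medians of the difference between BAT and WAT were 1.95 for mitochondrial genes, 0.28 for peroxisomal genes and -0.11 for all genes. After quantile normalization over the 42 arrays these medians were 2.0, 0.41 and 0.03, with 16 mitochondrial and 4 peroxisomal genes higher by at least 1, against 3.83% higher and 4.17% lower among all genes.

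Liver against WAT gave the reverse weighting. Peroxisomal genes were higher in liver by at least 1 in 9 of 12 cases (median difference 2.92), and mitochondrial genes in 6 of 19 (median difference 0.73), against 5.61% higher and 12.5% lower among all genes. Of the 35 genes only Crat was lower in liver than in WAT on the deposited values, and after quantile normalization Acadm was too (-0.05). Quantile normalization gave 9 of 12 peroxisomal and 7 of 19 mitochondrial genes higher by at least 1, against 7.22% higher and 8.61% lower among all genes. Liver against BAT gave 9 of 12 peroxisomal genes higher and 0 lower by at least 1, and 1 of 19 mitochondrial genes higher and 11 lower, against 6.82% higher and 7.17% lower among all genes. Quantile normalization gave 8 peroxisomal genes higher and 13 mitochondrial genes lower in this contrast, against 6.94% and 7.26% of all genes.

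Entry into the mitochondrion was divided between the 2 forms of its gatekeeper. Cpt1a, the liver form of carnitine palmitoyltransferase 1, had 11.43 in liver, 7.78 in BAT and 9.56 in WAT, which made it the only mitochondrial gene lowest in BAT (difference between BAT and WAT -1.77, between liver and BAT 3.64). Its other probe sets gave the same order, liver above WAT above BAT. The probe set that Cpt1b, the muscle and brown fat form, shares with Chkb and Gm44502 ran the other way, with 6.8543 in liver, 11.682 in BAT and 7.0593 in WAT, and cannot be ascribed to Cpt1b alone. The next steps of the shuttle followed the BAT pattern: Slc25a20, the carnitine-acylcarnitine carrier, had 11.34 in liver, 12.71 in BAT and 10.76 in WAT, and Cpt2, which returns the acyl group to CoA inside the mitochondrion, had 10.67 in liver, 12.39 in BAT and 9.89 in WAT.

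The dehydrogenases of the spiral were ordered by BAT as well. Acadvl, the very long-chain acyl-CoA dehydrogenase, had the largest difference of the 35 genes between BAT and WAT (2.9), with 12.16 in liver, 13.57 in BAT and 10.67 in WAT. Acadl, the long-chain enzyme, differed by 2.63 between BAT and WAT and by -1.89 between liver and BAT, with 12.03 in liver, 13.92 in BAT and 11.29 in WAT. Acadm and Acads, for medium and short chains, differed by 1.66 and 1.95 between BAT and WAT. Acad10, a relative with a narrower substrate range, was dim in every tissue (8.17 in liver, 8.36 in BAT, 7.87 in WAT). Its dimmer probe set put BAT lowest (7.63 in liver, 7.31 in BAT, 7.4 in WAT).

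The trifunctional protein, which carries out the remaining steps on long chains, showed the same pattern in both subunits. Hadha, its alpha subunit, had 10.35 in liver, 12.01 in BAT and 9.21 in WAT. Hadhb, its beta subunit, had 11.85 in liver, 14.1 in BAT and 11.49 in WAT, and its difference of -2.25 between liver and BAT was the lowest of the mitochondrial genes. The short-chain enzymes Echs1 (enoyl-CoA hydratase), Hadh (hydroxyacyl-CoA dehydrogenase) and Acaa2 (the ketoacyl-CoA thiolase) were higher in BAT than in WAT by 1.48, 1.32 and 2.18, although the dimmest of the Hadh probe sets went the other way (9.9 in liver, 7.41 in BAT, 9.41 in WAT). Acaa2 stood almost level between liver (12.68) and BAT (12.9), and its other probe sets divided, with liver (12.52) above BAT (12.38) on one and below it (12.06 in liver, 13.08 in BAT) on the other.

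The auxiliary enzymes and electron carriers followed BAT with 1 exception, Hsd17b10. Eci1, an enoyl-CoA isomerase, and Decr1, a dienoyl-CoA reductase, both needed for unsaturated chains, were higher in BAT than in WAT by 2.53 and 1.59. Etfa and Etfb, the subunits of the electron transfer flavoprotein, and Etfdh, which hands its electrons to ubiquinone, were higher by 1.4, 1.56 and 2.1. Hsd17b10, a dehydrogenase of isoleucine breakdown and a subunit of mitochondrial RNase P, was nearly flat, with 10.95 in liver, 10.93 in BAT and 10.81 in WAT.

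The peroxisomal genes spread more widely in liver. Acox2, the branched-chain oxidase that shortens bile acid precursors, had the largest differences of the 35 genes, 4.53 between liver and WAT and 4.2 between liver and BAT (11.18 in liver, 6.98 in BAT, 6.65 in WAT). Acox3, another branched-chain oxidase, was dim and flat (7.16 in liver, 7.24 in BAT, 7.06 in WAT). The bifunctional enzymes parted in the same way: Ehhadh, the L-form, had 11.49 in liver, 9.51 in BAT and 8.36 in WAT, while Hsd17b4, the D-form, had 11.62 in liver, 11.38 in BAT and 11.49 in WAT. A dimmer Hsd17b4 probe set put liver lowest, at 9.88, against 11.57 in BAT and 11.39 in WAT.

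The peroxisomal thiolases are near-identical copies in mouse. Acaa1b, on its own probe set, had 13.61 in liver, 9.88 in BAT and 10.04 in WAT. Acaa1a, on its brighter single-gene probe set, had 8.91 in liver, 9.02 in BAT and 8.25 in WAT, and its other one was highest in WAT at 9.26. The 2 probe sets that name both copies had 12.0623 and 13.235 in liver of VAAM mice and 12.063 and 13.2351 in liver of water mice, and 10.3981 and 10.9537 in BAT of both groups. Signal of such copies can be shared, so the split between them is uncertain.

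Scp2, which holds a thiolase for branched chains and a lipid transfer domain, was the brightest of the 35 genes in liver (14.25 in liver, 13.12 in BAT, 12.89 in WAT), although its second brightest probe set put liver lowest (12.4 in liver, 12.58 in BAT, 12.98 in WAT). Phyh and Hacl1, the hydroxylase and the lyase of alpha-oxidation, were higher in liver than in WAT by 3.16 and 2.99. Crot, which makes carnitine esters of medium chains for export, Pecr, the peroxisomal enoyl-CoA reductase, and Decr2, the peroxisomal dienoyl-CoA reductase, were higher in liver than in WAT by 3.08, 2.85 and 2.5. Levels of different genes are not compared per transcript length here, and brightness also depends on the probes.

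Among the 4 genes of less certain place, Amacr (the racemase of branched chains), Eci2 (an enoyl-CoA isomerase) and Acad11 (a dehydrogenase of long chains) were highest in liver and Crat, the carnitine acetyltransferase, was highest in BAT. Crat had 7.79 in liver, 10.13 in BAT and 8.99 in WAT, and its difference of -2.34 between liver and BAT was the lowest of all 35 genes. Its other 2 probe sets gave the same order.

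**Figure D2:**
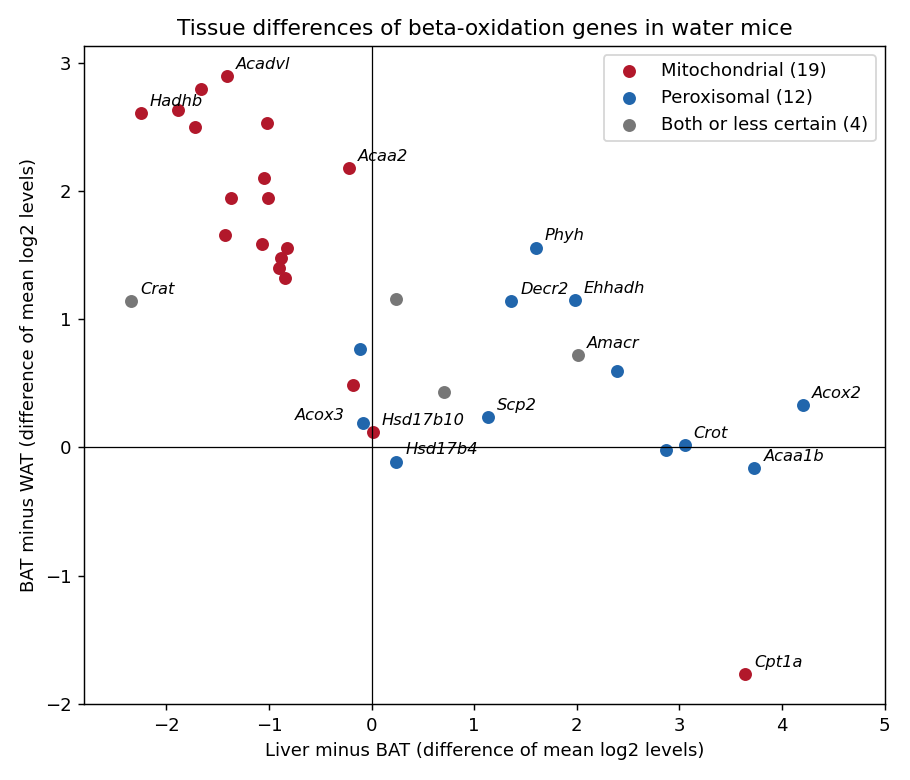
Difference of mean log2 levels between liver and BAT (x axis) against that between BAT and WAT (y axis) for the 35 genes in water mice; each point is a gene, coloured by compartment. The axes share the BAT values. Mitochondrial genes lie at the upper left except Cpt1a (3.64, -1.77) and Hsd17b10, which is near 0 on both axes, and peroxisomal genes extend to the right, as far as Acox2 (4.2 between liver and BAT).

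The tissue differences in VAAM mice were equal to those in water mice to 2 decimals for all 35 genes. This is not an independent repeat, because the 14 arrays of a tissue share a summary.

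Genes that feed or control the pathway were read from a list of 39, of which 34 were measured. They shared no common order of tissues, and those named here are examples. Acaca, listed among the brakes on the pathway, had 8.74 in liver, 12.35 in BAT and 11.41 in WAT. Abcd2, listed under entry, had 6.59 in liver, 8.25 in BAT and 11.16 in WAT. Of the peroxisome assembly genes, Pex3 had 9.38 in liver, 10.37 in BAT and 10.21 in WAT. Pex16 had 10.85, 10.0 and 9.89. Ppara, the PPAR form of oxidative tissues, had 10.82 in liver, 10.44 in BAT and 7.25 in WAT, and its coactivator Ppargc1b had 8.78 in liver, 11.42 in BAT and 8.44 in WAT. Bdh1, which forms the ketone body hydroxybutyrate, had 11.55 in liver, 6.23 in BAT and 6.38 in WAT, whereas Oxct1, which consumes ketone bodies, had 7.12 in liver, 11.71 in BAT and 11.69 in WAT.

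Because PPAR binds a direct repeat of AGGTCA, RefSeq promoters of build GRCm38.p6 (250 bases before the start site to 50 after) were searched on both strands for AGGTCA, any 1 base and AGGTCA again, with at most 2 mismatches among the 12 fixed letters. A match was present for 4 of 30 genes of the group (13.3%), against 574 of 14452 measured genes with a promoter sequence (3.97%). The mitochondrial genes had 3 of 17 and the peroxisomal genes 1 of 11. The estrogen-related receptor element TCAAGGTCA, which overlaps the AGGTCA repeat unit, was found in 0 of 30, against 0.401% of measured genes. At so low a share most lists of 30 genes would hold no match, so this count says little about the group. Cpt1b, Acaa2, Decr1, Hsd17b4, Crat and Amacr were not searched. The matches are shown with 8 bases on each side because 3 belong to genes highest in BAT and 1 to the gene with the largest liver difference; capitals mark the match, positions count from the start base as 0, and a match is a description of letters, not a site.
Echs1 (chr7:140116484-140116512, minus strand, positions -83 to -71): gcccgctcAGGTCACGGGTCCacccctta
Etfa (chr9:55512300-55512328, plus strand, opposite to the gene, positions -77 to -65): ttgggagtAGGGCAAAGGTAAgggtgtgc
Slc25a20 (chr9:108662134-108662162, plus strand, positions 6 to 18): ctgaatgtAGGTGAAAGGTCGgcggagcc
Acox2 (chr14:8258810-8258838, minus strand, positions 9 to 21 from an alternative start): gctgtcccAGGACAGAGGTGAgtcaagag

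The main test of VAAM against water gave no adjusted call in any tissue. Because deviations are compressed by a different factor for each probe set, differences are expressed in units of the within-group SD of the gene. Limma called 0 of 61 probe sets of the group in liver, in WAT and in BAT at an adjusted p of 0.05 (Benjamini-Hochberg over 45037 probe sets), and 0% of all probe sets in either direction in each tissue. At an unadjusted p of 0.05 the group had 0 higher and 8 lower in liver, against 4.17% higher and 4.92% lower among all probe sets (8 of 61 is 13.1%). It had 1 higher and 2 lower in WAT, against 1.65% and 2.1%, and 0 higher and 2 lower in BAT, against 2.16% and 2.93%. After quantile normalization within liver the group had 1 higher and 5 lower, against 0.688% higher and 6.66% lower among all probe sets. These counts are limited, because 20 of the 61 probe sets then had no spread left, against 1429 of all 45037.

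**Figure D3:**
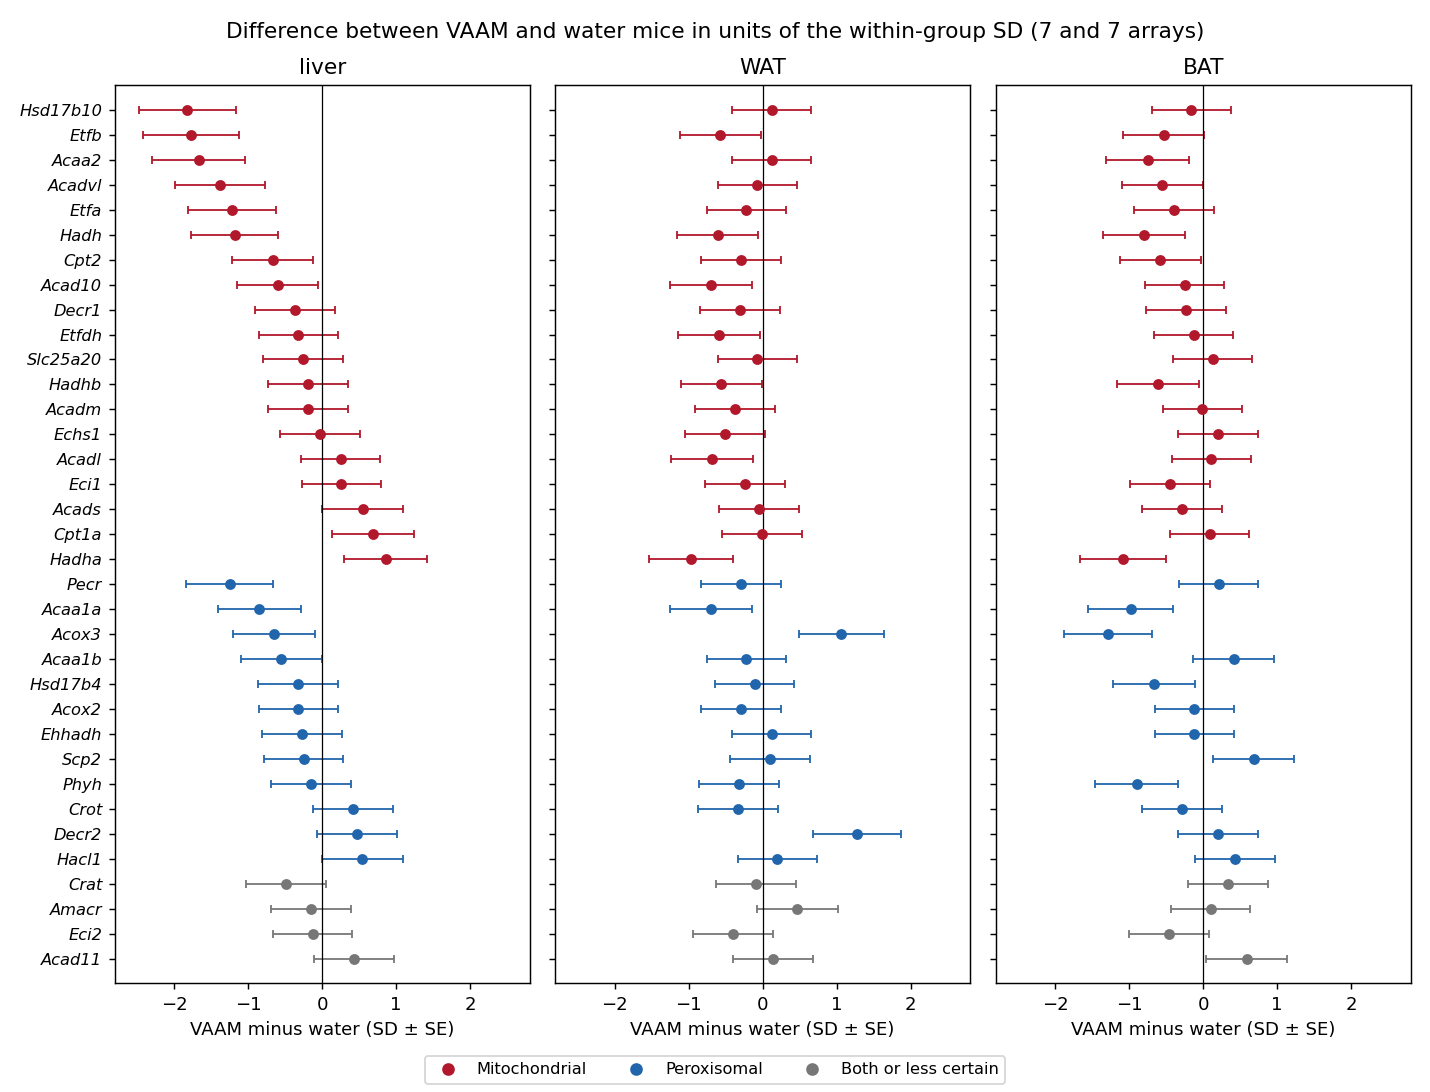
Difference between VAAM and water mice (x axis, within-group SD, with SE bars) for the 35 genes in liver, WAT and BAT, n = 7 mice per group, coloured by compartment. The liver values run between -1.82 (Hsd17b10) and 0.86 (Hadha, which stood at -0.36 after quantile normalization), and none passed the adjusted threshold.

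Over the 35 genes the median difference was -0.27 in liver, -0.24 in WAT and -0.23 in BAT, against -0.04, 0.0 and 0.03 for all genes. The VAAM mean was lower for 26 genes in liver, 26 in WAT and 23 in BAT, where 52.4%, 49.7% and 48.2% of all genes were lower. In liver the medians were -0.32 for mitochondrial and -0.29 for peroxisomal genes, in WAT -0.31 and -0.16, and in BAT -0.29 and -0.12. The comparison with all genes turned round with quantile normalization within tissue: the group's medians then stood at -0.19 (the 17 genes with any spread left), -0.21 and -0.16, above the medians of all genes, -0.33, -0.47 and -0.21.

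Markers of cell types also differed between the groups. In liver all 5 macrophage genes had a higher VAAM mean (median 0.54 SD), none with an unadjusted p under 0.05, and the mean of the list had its lowest, median and highest value at 8.666, 8.671 and 8.676 in VAAM mice and at 8.66, 8.669 and 8.671 in water mice. Of 3 endothelial genes in liver 2 were higher, among them Cdh5 at 1.84 SD (limma unadjusted p = 0.00375), with a list mean of 8.208 in every liver. In BAT 2 of 4 white adipocyte genes were higher, Retn at 2.11 SD and Adipoq at 1.96 SD (limma unadjusted p = 0.00151 and 0.014), with a list mean between 9.255 and 9.264 in VAAM mice and between 9.252 and 9.259 in water mice. Adipoq was nearly as high in BAT (14.04) as in WAT (14.39), so it does not mark white adipocytes in BAT. The other genes of this list, Lep and Nnat, stood at -0.26 and -0.01 SD. Leptin (Lep), the defining member, stood at 7.14 in BAT of both groups. In WAT all 4 white adipocyte genes (median -0.5 SD) and all 3 endothelial genes (median -0.66 SD) were lower. None of these had an unadjusted p under 0.05. Of 7 epididymis genes in WAT 3 were higher and 4 lower. Lcn5, at 2.16 SD, had the largest difference (12.72 in VAAM mice, 7.28 in water mice, limma unadjusted p = 0.00127). Of 5 brown adipocyte genes in BAT 3 were higher and 2 lower, among them Cox7a1 at -1.38 SD (limma unadjusted p = 0.0213). No marker passed the adjusted threshold, and the part of these cells in the medians of the group was not tested.

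The liver probe sets below an unadjusted p of 0.05 were those of Hsd17b10, Etfb and Acadvl, 2 each of Acaa2 and Pecr, and a dim probe set of Hadhb. Hsd17b10 stood lowest, with values in SD from the water mean of -3.17, -1.87 and -0.18 (lowest, median, highest) in VAAM mice and -1.1, -0.07 and 1.81 in water mice. The groups overlapped, the difference was -1.82 ± 0.651 (SE, n = 7 each), and the p was 0.00583 by the two-sided exact permutation test and 0.371 after adjustment in limma.

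Etfb had -3.19, -1.59 and 0.12 in VAAM mice and -1.02, -0.17 and 1.15 in water mice, a difference of -1.77 ± 0.645 (exact permutation p = 0.00816, limma adjusted p = 0.413). Acaa2 had -2.92, -1.58 and 0.14 in VAAM mice and -1.7, 0.09 and 0.87 in water mice, a difference of -1.67 ± 0.634 (exact permutation p = 0.0119, limma adjusted p = 0.439). Acadvl had -2.9, -1.57 and 0.3 in VAAM mice and -0.7, -0.29 and 1.48 in water mice, a difference of -1.38 ± 0.604 (exact permutation p = 0.0248, limma adjusted p = 0.493). In all of these most VAAM mice lay below the water median and the ranges overlapped. Etfa and Hadh were under 0.05 in the exact permutation test only, at -1.22 SD (p = 0.035) and -1.18 SD (p = 0.0373). Their unadjusted limma p values were 0.183 and 0.056, and their within-group SDs in liver were 1.04e-06 and 3.38e-06. Limma draws the variance of each probe set toward a value common to all. This weakens it for the probe sets with the smallest SD.

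Pecr was low in every VAAM liver, with 0 of 7 mice above the water median, although the ranges overlapped. Its values were -4.11, -0.72 and -0.39 in VAAM mice and -0.63, 0.05 and 0.97 in water mice, a difference of -1.25 ± 0.592 (exact permutation p = 0.00408, limma adjusted p = 0.51). VAAM mouse 6 held the lowest value, and without it the difference was -1.64. The dimmer Pecr probe set had -3.09, -1.27 and -0.72 in VAAM livers and -1.15, -0.2 and 2.03 in water livers, a difference of -1.63 (exact permutation p = 0.00699). In a limma fit over all 42 arrays, where the spread is shared between tissues, both Pecr probe sets were called lower in liver (adjusted p = 0.00264 for the dimmer and 0.0403 for the brighter), with 0.724% of all probe sets called higher and 0.81% lower. They were the only calls of the group in that fit, in which all probe sets had 0.149% higher and 0.138% lower in WAT and 0.224% and 0.475% in BAT. The within-group SD of the dimmer Pecr probe set was 0.000232 in liver, 6.23e-06 in WAT and 1.08e-05 in BAT. That of the brighter one was 0.000332, 2.62e-05 and 0.000126. A spread shared between tissues is thus smaller than that of liver, and the adjusted p values of this fit are too small for Pecr in liver.

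**Figure D4:**
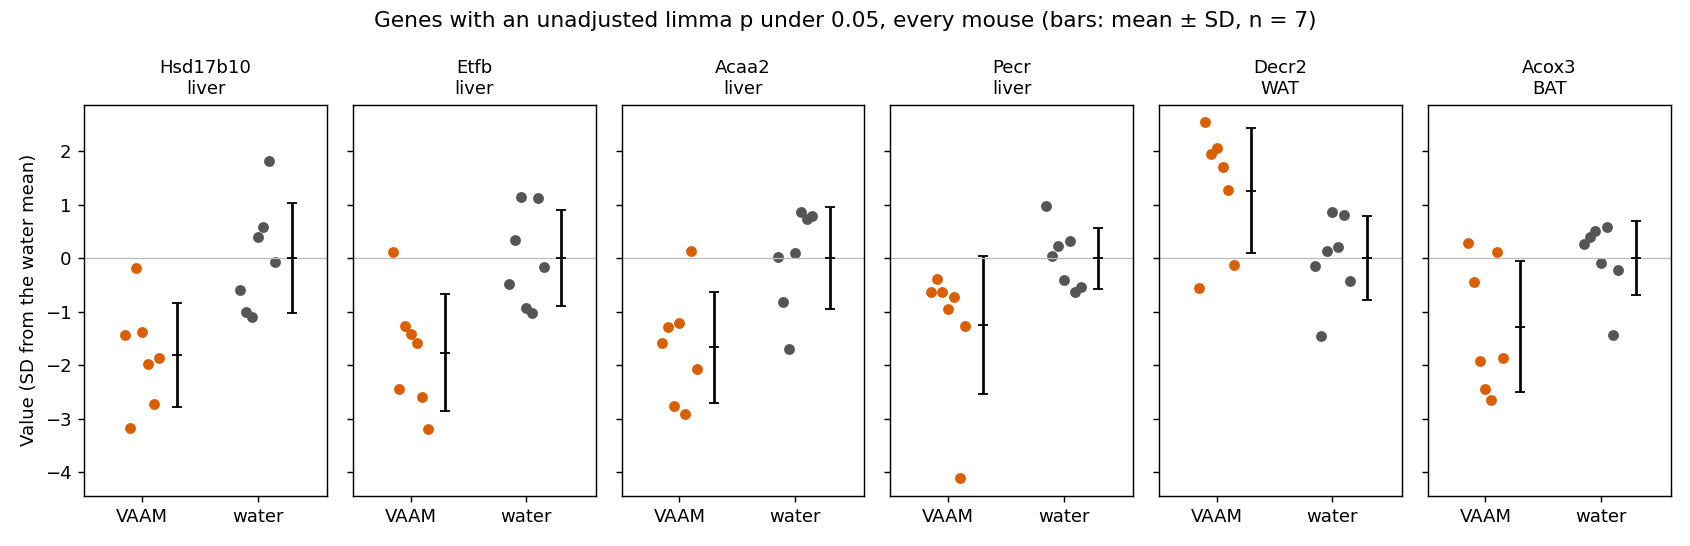
Value in every mouse (y axis, SD from the water mean) for 6 of the genes below an unadjusted limma p of 0.05, VAAM left and water right in each panel, with mean ± SD (n = 7). The Pecr panel shows VAAM mouse 6 at -4.11. The Decr2 panel in WAT shows 5 of 7 VAAM mice above all water mice on the deposited values, a direction that quantile normalization turned to -0.51.

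The highest liver values of the group were those of Hadha, Cpt1a and Acads. Hadha had -0.02, 0.56 and 2.81 in VAAM mice and -1.25, -0.06 and 1.24 in water mice, a difference of 0.86 ± 0.562 (exact permutation p = 0.135) that became -0.36 after quantile normalization. Cpt1a had -0.86, 0.59 and 2.71 in VAAM mice and -1.12, 0.47 and 0.74 in water mice, a difference of 0.69 ± 0.553 (exact permutation p = 0.224). Acads differed by 0.55 ± 0.546 (exact permutation p = 0.328). Every VAAM mouse lay above the water median for Hadha and Acads, on the deposited values, and the ranges overlapped.

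Among the representative probe sets in WAT, Decr2 had the smallest p, with -0.56, 1.7 and 2.54 in VAAM mice and -1.45, 0.14 and 0.87 in water mice, a difference of 1.27 ± 0.594 (exact permutation p = 0.0379, limma adjusted p = 1) that was -0.51 after quantile normalization. Acox3 had -0.49, 1.0 and 2.49 in VAAM mice and -1.29, 0.14 and 0.94 in water mice, a difference of 1.06 ± 0.576 (exact permutation p = 0.0728) that was -0.62 after quantile normalization. Amacr differed by 0.47 ± 0.543, and by -0.34 after quantile normalization. The lowest was Hadha, with -2.79, -0.76 and 0.16 in VAAM mice and -1.11, -0.23 and 1.52 in water mice, a difference of -0.97 ± 0.57 (exact permutation p = 0.0979). Acaa1a and Acad10 both differed by -0.7 ± 0.553, and for Acad10 the mean of its probe sets gave 0.19. The 2 probe sets lower at an unadjusted p of 0.05 were further ones of Hadh and Hsd17b4. That of Hadh, the dimmest for its gene, stood at -1.31 (exact permutation p = 0.0216), against -0.61 for the representative one. That of Hsd17b4, nearly as bright in WAT as the representative one (11.39 and 11.49), stood at -1.17 (exact permutation p = 0.0367), against -0.11.

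In BAT Acox3 had -2.65, -1.87 and 0.28 in VAAM mice and -1.43, 0.26 and 0.58 in water mice, a difference of -1.28 ± 0.595 (exact permutation p = 0.0306, limma adjusted p = 0.946). Hadha differed by -1.08 ± 0.578, with all 7 VAAM mice between -3.16 and -0.35 and water mice between -1.85 and 1.23, and Acaa1a by -0.98 ± 0.571, which the mean of its probe sets turned to 0.41. The highest were Scp2 (0.68 ± 0.552), Acad11 (0.59 ± 0.548) and Hacl1 (0.43 ± 0.542), of which Scp2 and Hacl1 turned to -0.08 and -0.16 after quantile normalization. The dimmer Pecr probe set stood at -1.5 in BAT, while the brighter one stood at 0.21.

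Whether the VAAM difference itself differed between tissues was tested with limma on values scaled to unit SD. No probe set of the group was called between BAT and WAT, liver and WAT, or liver and BAT (smallest adjusted p 0.481, 0.303 and 0.367), where 0.00444%, 0.129% and 0.091% of all probe sets were called higher and 0.0155%, 0.12% and 0.0622% lower. Acox3, at -1.28 in BAT and 1.06 in WAT, had the smallest unadjusted p between BAT and WAT, 0.00201. This fit took the arrays as independent. With arrays of the same treatment and number as a block the smallest adjusted p values were 0.29, 0.212 and 0.257, again with no call.

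Acad11 varied with the mouse number alike in all tissues, a pattern singled out after its values were seen. VAAM mouse 6 was its highest, at 1.83 SD in liver, 2.16 in BAT and 1.61 in WAT, and water mouse 2 its lowest, at -2.56 in liver, -2.05 in BAT and -2.2 in WAT. Over all genes, deviations of arrays with the same treatment and number had a median correlation between tissues of 0.063 to 0.168, against -0.038 to -0.01 for different numbers. The labels do not say that a number marks the same animal in every tissue.

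Rank products, the test named in the study's methods, gave other counts. Limma was kept as the main test because, in earlier results of these data, rank products made many calls in simulated arrays without a difference. On the deposited values, at a false discovery rate of 0.05, rank products called 6 probe sets of the group higher and 13 lower in liver (2.95% and 1.51% of all probe sets), 0 higher and 3 lower in WAT (2.19% and 1.64%), and 4 higher and 2 lower in BAT (2.33% and 2.41%). A Cpt1a probe set in liver and the Ehhadh probe set in BAT were called in both directions at once. On values scaled to unit SD it called 0 of 61 in each tissue, against 0.506% higher and 0.397% lower of all probe sets in liver, 0.0777% and 0.0799% in WAT, and 0.213% and 0.124% in BAT.

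The medians of the group depended on single mice. In WAT, VAAM mouse 1 was the lowest of 14 mice for 25 of 35 genes, against 24% of all genes, and its median over the group was -2.59 SD from the water mean, with mitochondrial genes at -2.88 and peroxisomal genes at -1.62. This array also had the highest epididymis level, 13.5, and the part of that level in the result was not tested. Water mouse 1, next in epididymis level at 12.15, had a median of -0.48. Water mouse 2, at 10.74, had -0.66, and VAAM mouse 2, at 10.18, had 0.62. Water mice 3 to 7, with levels between 7.14 and 7.53, had medians between 0.05 and 0.58. VAAM mice 3 to 7, with levels between 7.8 and 8.65, had medians between -0.22 and 0.35. Without VAAM mouse 1 the median difference of the group in WAT was 0.2, with an unadjusted p under 0.05 for 2 higher probe sets and 1 lower one, against 2.13% and 1.9% of all.

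In BAT, VAAM mouse 3 was the lowest of 14 for 26 of 35 genes, against 18.5% of all genes, with a median of -2.11, and its muscle level was low, at 6.94. VAAM mouse 6 was the highest for 19 genes, against 10.2% of all genes, with a median of 1.23. The mice with the highest muscle levels, VAAM mouse 7 at 11.18 and water mouse 1 at 11.46, had medians of -0.91 and -0.96, and VAAM mouse 1, at 10.69, had -0.57. VAAM mouse 5 and water mouse 3, at 10.43 and 10.46, had 0.19 and 0.27. The part of muscle RNA in these values was not tested. Without VAAM mouse 3 the median difference in BAT was 0.03. Without VAAM mice 3 and 5 it was 0.01, with an unadjusted p under 0.05 for 1 higher probe set and 0 lower ones, against 2.18% and 2.56% of all.

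In liver, VAAM mouse 6 was the highest of 14 for 16 of 35 genes, against 8.48% of all genes, with a median of 1.33, whereas the other 6 VAAM mice had medians between -0.99 and -0.34. Water mice had medians between -0.68 and 0.73. Not all genes followed, since mouse 6 was the lowest of 14 for Pecr (-4.11) and Etfa (-2.34) and also low for Hsd17b10 (-2.72) and Etfb (-2.6). Without mouse 6 the median difference in liver was -0.66, and the probe sets lower at an unadjusted p of 0.05 numbered 13 of 61 and the higher ones 0, against 4.9% and 3.87% of all probe sets, with 0 called after adjustment (smallest adjusted p 0.398).

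**Figure D5:**
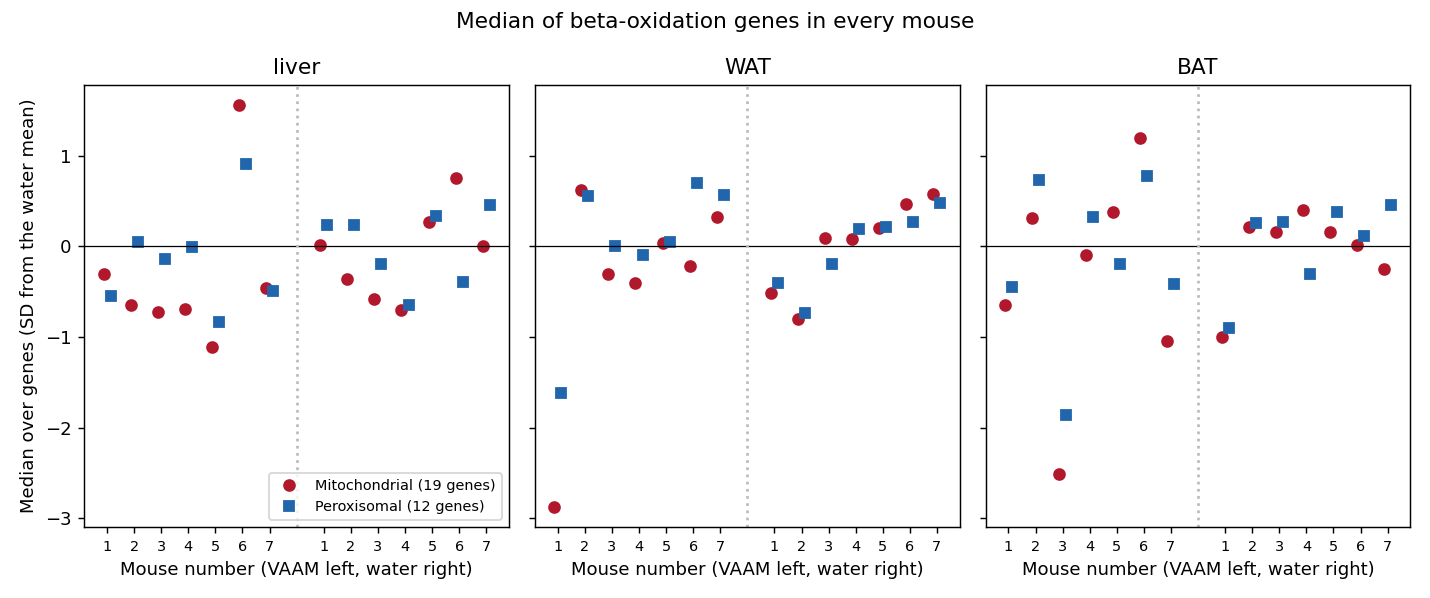
Median over the 19 mitochondrial genes (circles) and the 12 peroxisomal genes (squares) in every mouse (y axis, SD from the water mean of each gene), with VAAM mice left and water mice right in each tissue. VAAM mouse 1 in WAT and VAAM mouse 3 in BAT lie far below the others, and VAAM mouse 6 lies above the others in liver.

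The other genes of the pathway gave no adjusted call. Of the 34 measured, 1 was higher and 1 lower in liver, 0 and 0 in WAT, and 0 and 1 in BAT at an unadjusted p of 0.05, against 4.11% higher and 4.77% lower of all genes in liver, 1.62% and 1.83% in WAT, and 2.15% and 2.22% in BAT. The higher one in liver was Rxra, the partner receptor of PPAR, at 1.92 SD (limma unadjusted p = 0.00297), and the lower one in BAT was Esrra, an estrogen-related receptor, at -1.25 SD. The lower one in liver was Gcdh, a dehydrogenase of lysine and tryptophan breakdown, at -1.13 SD. These 3 were named after their values were seen.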

How the data were processed

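Total RNA of liver, WAT and BAT was hybridized to Affymetrix mouse genome arrays. The authors summarized the scans with the distribution free weighted method in R (version 2.7.2 in the submitters' processing notes). The deposited numbers were read as log2 levels from their range, since the sources used here do not name the base. The table held 45101 probe sets, of which 64 controls were left out; 34945 named 1 gene, 932 several and 9160 none by the platform annotation. No filter on low values was applied. Arrays carry no read depth, and their number limits the precision.

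Groups were compared within tissue with limma 3.58.1 in R 4.3.3 (default prior, Benjamini-Hochberg over 45037 probe sets). Rank products, with every VAAM array set against every water array, used 20 permutations (numpy 2.4.6, pandas 2.3.3, Python 3.11.15). Exact permutation tests were two-sided over 3432 splits. Effects are differences of group means over the pooled within-group SD. A gene was represented by its single-gene probe set with the highest mean over the 42 arrays. Genes with values per group were those with an unadjusted p under 0.05, the 3 highest and 3 lowest per tissue, and the 3 highest and lowest per tissue contrast. The rule ordered tissue contrasts by SD; since the tissues appear to have been summarized separately (array medians 6.7294 to 6.7297 in liver, 6.7739 to 6.7754 in BAT, 6.9076 to 6.9133 in WAT), they were ordered by the log2 difference. The members, lists and tests were chosen with earlier results of these data known. Both tests were tried on simulated data. The simulation for rank products gave every probe set the same spread. It therefore cannot show how that test acts on the unequal spreads of the deposited values. Promoters came from RefSeq (GRCm38.p6). The CAAM mixture was left aside. The paper says that mice were divided at random among treatments. The sources do not say how the mice were spread over litters or cages. The p-values take the 7 and 7 mice as independent, and an effect of a shared cage was not tested. Figures were drawn with matplotlib 3.10.9.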

Additional observations from a re-analysis of the deposited data

Results flagged for a closer look

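In groups of 7 mice, a value was singled out where its gap to the nearest other value took up more of the range than Dixon's limit allows. This was examined for the 40 groups of the genes named for VAAM against water; chance alone marks about 1 in 20 groups; 2 were found. Pecr in the liver of VAAM mouse 6 was far below the other VAAM mice, with a ratio of 0.765 and a value of -4.11 SD. Acox3 in the BAT of water mouse 6 was far below the other water mice, with a ratio of 0.604 and a value of -1.43 SD.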

How the results depend on the processing

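Deviations of VAAM and water arrays with the same replicate number were little related in BAT (correlations between -0.192 and 0.176) and liver (between -0.128 and 0.137). In WAT the correlations lay between -0.077 and 0.483, with 0.483 for number 1 and 0.317 for number 6. The WAT arrays numbered 1 also had the highest epididymis level of their group, 13.5 in VAAM mice and 12.15 in water mice. Whether the number marks a shared step of the experiment was not tested. With the replicate number as a block, limma called 0 of 61 probe sets for VAAM against water in each tissue and 0 for each difference of effects; the tissue counts stayed at 49, 49 and 23 higher, and the medians at -0.27, -0.24 and -0.23. For VAAM against water, 1 fit over 42 arrays called 2 in liver, and rank products on deposited values made 19 calls in liver (18 probe sets), 3 in WAT and 6 in BAT (5 probe sets), where the main count was 0. In water mice limma called 49 higher and 12 lower between BAT and WAT (36.9% and 62.8% of all probe sets), 49 and 12 between liver and WAT (37.2% and 62.6%) and 23 and 38 between liver and BAT (44.3% and 55.4%). With a difference of at least 1 in place of the test, a choice made after seeing the data, 29, 22 and 15 were higher (1.78%, 3.64% and 4.55% of all probe sets) and 3, 4 and 21 lower (5.26%, 9.62% and 4.98%). Leaving out 1 array in turn gave 0 to 0 calls for VAAM against water, 49 to 49, 49 to 49 and 23 to 23 higher for the tissue contrasts, and medians between -0.66 and -0.12 in liver, -0.35 and 0.2 in WAT (0.2 without WAT VAAM mouse 1) and -0.41 and 0.03 in BAT (0.03 without BAT VAAM mouse 3). Without the arrays that stood apart, also chosen after seeing the data, the medians were 0.2 in WAT and 0.01 in BAT. Quantile normalization turned the sign of Hadha in liver (-0.36), of Acox3 (-0.62), Amacr (-0.34) and Decr2 (-0.51) in WAT and of Hacl1 (-0.16) and Scp2 (-0.08) in BAT, and the mean of all probe sets of a gene turned Acad10 in WAT (0.19) and Acaa1a in BAT (0.41). The cause of these changes was not tested. After quantile normalization 20 of 61 probe sets of the group had no spread in liver, so no difference in SD could be given for them. Limma still counted all 61 as tested there for VAAM against water.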
